A study of Mus musculus with 3 samples.

Results

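The T lineage transcription factors Tcf7, Lef1, Gata3, Bcl11b, Tox, Tbx21, Eomes and Zbtb7b were followed in blood progenitors of mice that lacked Mef2c, itself a transcription factor. Every array probe, control spots aside, that the scanner files name for one of these genes was taken. The 8 genes, of 27962 gene names on the array, had 13 of its 41174 probes, of which 11 were bright enough to be tested. Each probe was read in 6 samples, which were 3 mutant and 3 control samples paired on 3 arrays of 1 slide.

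The cells, called multipotent progenitors (MPPs) in the labels, were bone marrow cells sorted as c-kit+ and Sca-1+ and negative for CD3, B220, Gr-1, Mac-1 and Ter119. A CD3 gate removes mature T cells, and the gate holds no marker that parts stem cells from later progenitors. Mutant mice were Mx1-Cre Mef2cf/f and control mice Mef2cf/f, so controls carried the floxed alleles without Cre, and an effect of Cre cannot be told apart from loss of Mef2c. Mice of both genotypes received 250 µg of poly(I:C) on each of 4 days, and marrow was taken 2 days after the last dose. Poly(I:C) induces interferon, which switches on the Mx1 promoter in many cell types, not in blood cells alone. Age, strain and pooling of animals are not given in the sources used here. Each sample held 15000 cells, whose cDNA was amplified by a global PCR, and 250 ng was labelled with Cy3 for the mutant and Cy5 for the control. No dye swap is labelled, so dye and genotype cannot be told apart. Since the labels name no separate animals or pools for the replicates, a p-value here covers the spread between these samples alone, which may be technical.

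These factors build the T lineage in a rough order. In the thymus, Notch signals switch on Tcf7, which encodes the HMG box protein TCF-1 and opens T cell genes together with its relative Lef1. Gata3, a zinc finger factor, is needed from the earliest T cell precursors on and again for CD4 cells and type 2 helper cells, and Bcl11b closes off other fates at commitment. Tox and Zbtb7b, the latter known as ThPOK, act later in CD4 T cell development, whereas the T-box factors Tbx21 (T-bet) and Eomes direct killer cells, type 1 helper cells and natural killer cells.

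As labelled, Tcf7 and Gata3 had the lowest ratios of mutant over control among the 8 genes, and both lay below the control sample on every array. Tbx21 was also lower on every array, by a smaller amount, while Lef1, Eomes and Zbtb7b had ratios on both sides of 0. None of the 13 probes passed the test over all probes, and the size and spread of these ratios depend on how array 2 was labelled.

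Promoter windows of the pair with the lowest ratios are printed first. Such windows surround an annotated start, which may lie inside the gene, so they need not hold its main promoter. They come from RefSeq on build GRCm38.p6, run from 250 bases before to 50 after an annotated start, and are written 5′ to 3′ on the gene's strand. Capitals mark GATA cores (GATA on either strand) and E boxes (CANNTG, which reads the same on both strands), the sites bound by GATA factors and by basic helix-loop-helix proteins. Tcf7 has 2 windows, at chr11:52282965-52283264 and chr11:52282546-52282845, and Gata3 has 1, at chr2:9878551-9878850, all on the minus strand.
Tcf7 window 1: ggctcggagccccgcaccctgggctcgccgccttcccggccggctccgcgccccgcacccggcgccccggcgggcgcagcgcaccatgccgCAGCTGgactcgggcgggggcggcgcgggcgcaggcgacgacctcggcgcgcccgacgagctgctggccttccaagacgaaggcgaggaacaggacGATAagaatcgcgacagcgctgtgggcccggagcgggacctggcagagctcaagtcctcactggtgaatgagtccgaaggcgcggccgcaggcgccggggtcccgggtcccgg
Tcf7 window 2: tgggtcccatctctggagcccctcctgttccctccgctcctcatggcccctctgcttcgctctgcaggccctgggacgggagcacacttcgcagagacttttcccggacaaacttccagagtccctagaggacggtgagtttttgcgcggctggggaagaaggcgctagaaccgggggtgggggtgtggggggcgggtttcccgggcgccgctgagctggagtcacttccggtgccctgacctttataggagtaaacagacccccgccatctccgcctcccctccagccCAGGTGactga
Gata3: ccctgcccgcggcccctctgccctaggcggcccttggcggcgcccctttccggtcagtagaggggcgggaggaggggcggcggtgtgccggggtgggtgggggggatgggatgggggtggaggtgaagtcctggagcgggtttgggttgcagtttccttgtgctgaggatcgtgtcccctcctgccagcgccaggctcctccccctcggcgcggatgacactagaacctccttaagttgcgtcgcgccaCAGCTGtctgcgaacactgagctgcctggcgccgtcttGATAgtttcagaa
The first Tcf7 window held 1 GATA core and 1 E box, the second held 1 E box and no GATA core, and the Gata3 window held 1 of each. Of 32851 windows of this length, 57.9% held a GATA core and 72.3% an E box. The other motifs searched on both strands were the TCF/LEF core CTTTG (53.9% of windows), the RUNX core TGTGGT (16.8%) and the MEF2 consensus (3.19%), and none of these was in the 3 windows shown. Across the 12 windows matched to 7 of the 8 genes, the MEF2 consensus was found in 0. A match is a description of letters, and its absence says nothing about binding elsewhere in the gene.

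Levels are normalised log2 intensities of 1 channel, and the ratio on an array is the mutant level minus the control level. Signed values follow the labels, with the mutant in Cy3 on all arrays. The authors' deposited ratios run the opposite way on array 2: set against Cy5 over Cy3 in the scanner files, they correlated at -0.947 on array 1, at 0.935 on array 2 and at -0.939 on array 3. It is not known if the dyes of array 2 were swapped or if just that column was turned, so means with array 2 turned are given too.

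Tcf7 was measured by 2 probes for the transcript NM_009331. Probe A_52_P244702 lies at chr11:52209428-52209369 in the files' coordinates, whose build is not named. Its level was 9.99, 8.94 and 8.95 in mutant samples 1, 2 and 3, and 11.67, 11.11 and 10.70 in the control samples. The highest mutant sample stayed below the lowest control sample. Raw mean intensities were 749, 304 and 321 in the mutant channel against local backgrounds of 29 to 35, and 4281, 3226 and 2482 in the control channel against 51 to 55. The control channel was brighter for all probes, with array medians of 807 to 883 against 380 to 394 in the mutant channel, and normalisation removed that offset. The log2 ratios were -1.68, -2.17 and -1.75, with a mean of -1.86 ± 0.26 (SD, n = 3 arrays), which is a control level 3.64-fold over the mutant. Among 32911 tested probes this one ranked 5 by p (limma, unadjusted p = 0.00025, adjusted p = 0.543), and 0.0942% of tested probes had a mean ratio as low or lower.

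The other Tcf7 probe, A_52_P244711, starts 717 bases away in the same transcript and gave a more uneven picture. Its level was 9.08, 9.27 and 8.90 in the mutant samples and 11.15, 9.40 and 9.98 in the controls. The groups again did not overlap, but on array 2 the paired samples were nearly level. Its ratios were -2.08, -0.14 and -1.08, with a mean of -1.10 ± 0.97 (limma, unadjusted p = 0.0342, adjusted p = 0.543), and the control was 2.14-fold over the mutant. The ratio of the first probe minus that of the second was 0.39, -2.03 and -0.67 on the log2 scale, so the probes differed most on array 2. With both probes averaged before a gene-level fit, the log2 ratio of Tcf7 was -1.48 (limma, adjusted p = 0.456).

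Gata3 gave the most even ratios among the tested probes of these genes. Its only probe, A_52_P546363 for NM_008091, lies at chr2:9796573-9796514 in the files' coordinates. The level was 9.02, 8.21 and 8.33 in the mutant samples and 10.51, 9.70 and 9.52 in the control samples. Each mutant sample lay below all 3 controls. Raw intensities were 340, 180 and 205 in the mutant channel and 2008, 1210 and 1082 in the control channel. On the log2 scale the ratios were -1.49, -1.49 and -1.19, with a mean of -1.39 ± 0.17 (SD, n = 3), a control level 2.62-fold over the mutant (limma, unadjusted p = 0.0009, adjusted p = 0.543). It ranked 30 by p, and 0.352% of tested probes had a mean ratio as low. In bulk samples such as these, fewer cells that carry a transcript and less of it per cell cannot be told apart.

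**Figure D1:**
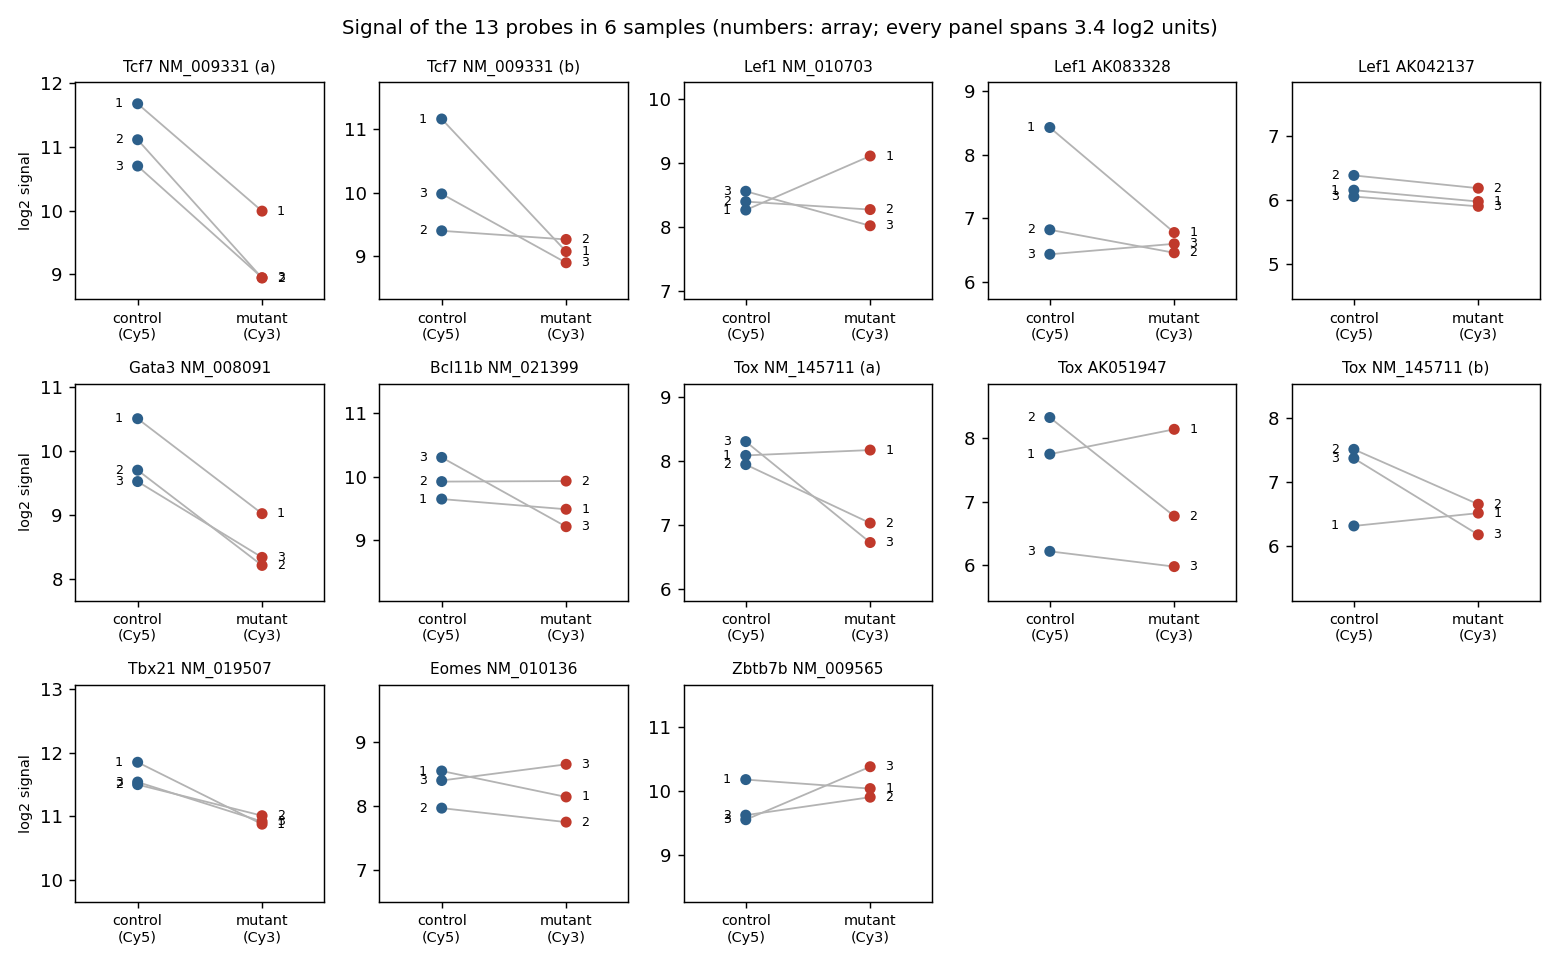
Normalised log2 signal (y axis) of each of the 13 probes in the control (Cy5, blue) and mutant (Cy3, red) samples, with a grey line joining the pair on 1 array and the array number beside each point. All panels span the same number of log2 units, but their absolute levels are not comparable between probes. (a) and (b) are A_52_P244702 and A_52_P244711 for Tcf7, and A_51_P421912 and A_52_P561073 for Tox. The lines of Tcf7 (a), Gata3 and Tbx21 fall from control to mutant on all 3 arrays, while those of Lef1 NM_010703, Eomes and Zbtb7b run both ways.

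Lef1, the HMG box partner of Tcf7, gave no common direction. Its bright probe, A_51_P420400 for NM_010703, spans chr3:131041424-131059585 in the files' coordinates and read 9.11, 8.27 and 8.02 in the mutant samples against 8.26, 8.39 and 8.56 in the controls. The mutant samples lay on both sides of the control range, with the highest of all 6 on array 1 and the lowest on array 3. The log2 ratios were 0.85, -0.12 and -0.54, with a mean of 0.06 ± 0.71 (limma, adjusted p = 0.958). With median centring in place of loess the mean was -0.16, so its sign is not settled. The other 2 Lef1 probes, for the cDNA clones AK083328 and AK042137, were too dim to be tested. The AK083328 probe rose above background in 0 mutant samples and 1 control sample, with log2 ratios of -1.64, -0.36 and 0.16. Its mean level was 6.61 in the mutant and 7.23 in the control samples. No fold difference is given, since just 1 of its levels was well above background. The AK042137 probe was not well above background in any sample.

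Bcl11b, the commitment factor, had its one wide gap between the groups on array 3. Its probe A_51_P171772 for NM_021399 (chr12:105437146-105437087 in the files' coordinates) read 9.49, 9.93 and 9.22 in the mutant samples and 9.65, 9.92 and 10.30 in the controls. The groups overlapped, and on array 2 the pair was level. The resulting ratios were -0.16, 0.01 and -1.08, with a mean of -0.41 ± 0.59 (limma, unadjusted p = 0.210, adjusted p = 0.645).

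Tox, an HMG box factor of CD4 T cell and innate lymphoid development, was dim on all 3 of its probes, and array 1 went against the other arrays on each. The probe for NM_145711 with the highest signal, A_51_P421912 (chr4:6615201-6615142), was bright enough in 1 mutant sample and 3 control samples. It read 8.17, 7.03 and 6.72 in the mutant samples and 8.09, 7.94 and 8.30 in the controls. The mutant sample of array 1 lay within the control range and the other mutant samples lay below it. This gave log2 ratios of 0.08, -0.92 and -1.58, with a mean of -0.80 ± 0.84 (limma, unadjusted p = 0.0678, adjusted p = 0.554). A second probe for the same transcript, A_52_P561073, starts 307 bases away and was above background in 0 mutant samples and 2 control samples. Its ratios of 0.20, -0.86 and -1.20 followed the first probe within 0.38 on every array (limma, adjusted p = 0.578). The mean level was 6.44 in the mutant and 7.06 in the control samples, and no fold difference is given for so dim a probe. The third probe, A_52_P258211 for the clone AK051947, starts 53048 bases from the first and was above background in 1 mutant sample and 2 control samples. It gave 0.39, -1.54 and -0.24, with a mean of -0.46 ± 0.99 (limma, adjusted p = 0.697). Array 2 was the lowest there, whereas both NM_145711 probes were lowest on array 3. The means of the NM_145711 probes were -1.25 and -1.03 without array 1 (limma, unadjusted p = 0.0103 and 0.016), -0.75 and -0.50 without array 2 (unadjusted p = 0.159 and 0.293) and -0.42 and -0.33 without array 3 (unadjusted p = 0.304 and 0.416). On the scanner software's processed signals the 3 Tox probes, in the order given here, were at -1.85, -1.40 and -0.82, so the size of their ratios depends on the background correction and normalisation.

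Tbx21, which directs type 1 helper and killer cells, varied little among the mutant samples. Its probe A_51_P501364 for NM_019507 (chr11:97207201-97207142 in the files' coordinates) read 10.88, 11.01 and 10.92 in the mutant samples and 11.85, 11.50 and 11.54 in the controls. The groups did not overlap, and the SD of the levels was 0.07 in the mutant and 0.19 in the control samples. Ratios of -0.97, -0.49 and -0.62 gave a mean of -0.69 ± 0.25 (SD, n = 3), a control level 1.62-fold over the mutant (limma, unadjusted p = 0.0243, adjusted p = 0.543). With any 1 of the 3 arrays left out the unadjusted p was above 0.05: 0.109 without array 1, 0.0579 without array 2 and 0.0592 without array 3.

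The related T-box gene Eomes, which acts beside Tbx21 in killer cells, showed no common direction. Its probe A_51_P332309 for NM_010136 read 8.14, 7.74 and 8.65 in the mutant samples and 8.54, 7.96 and 8.40 in the controls. The mutant samples spanned the whole control range. Its log2 ratios of -0.41, -0.22 and 0.25 had a mean of -0.12 ± 0.34 (limma, adjusted p = 0.866). Zbtb7b, the CD4 lineage factor, was read by A_51_P473229 for NM_009565 at 10.04, 9.91 and 10.38 in the mutant samples and 10.18, 9.62 and 9.55 in the controls. The groups overlapped, and array 3 had the widest gap. The log2 ratios were -0.14, 0.28 and 0.83, with a mean of 0.32 ± 0.49 (limma, adjusted p = 0.689), which was the highest mean of the 8 genes.

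**Figure D2:**
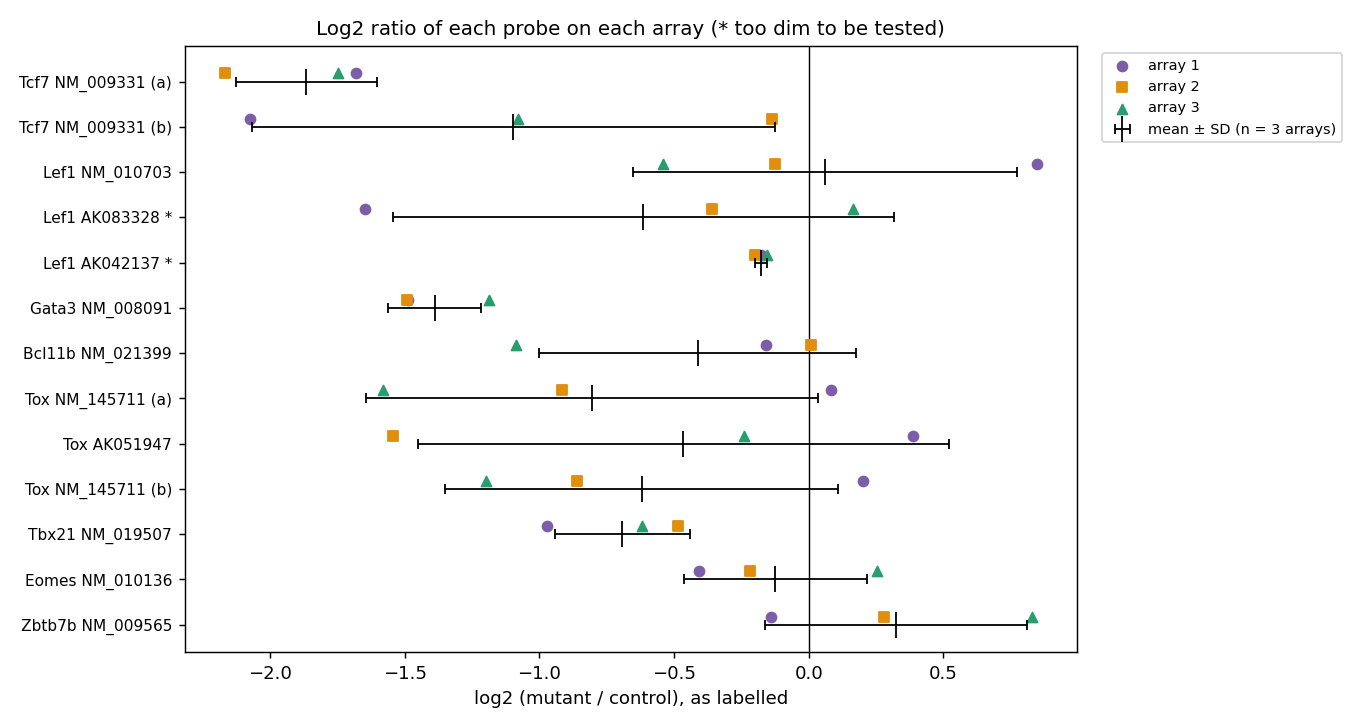
Log2 ratio of mutant over control (x axis, as labelled) of each probe (rows) on array 1 (circles), array 2 (squares) and array 3 (triangles), with the mean as a black tick and the SD over 3 arrays as a bar. Asterisks mark the 2 Lef1 probes that were too dim to be tested. Gata3 and the first Tcf7 probe keep all 3 points below -1, whereas Lef1 NM_010703 runs from -0.54 to 0.85.

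Over the tested probes of these genes, 9 of 11 had a mean ratio below 0 (81.8%, against 51.1% of all tested probes), and their median was -0.62 against -0.01 for all tested probes. The 3 Tox probes among the 11 passed the brightness filter through the control channel alone, which favours low ratios. Of the 8 probes well above background in all 6 samples, 6 were below 0. Their median was -0.55, against 0.0007 for all probes so filtered. At an unadjusted p under 0.05 (limma), 4 of the 11 were lower in the mutant, namely both Tcf7 probes, Gata3 and Tbx21, and 0 were higher. The share of all tested probes was 4.21% for lower and 4.93% for higher. The mutant samples of the same 4 probes lay wholly below the controls, which held for 9.89% of all tested probes, and none lay wholly above, which held for 7.51%. Those 4 were also below 0 on all 3 arrays, as were 18% of all tested probes, and none was above 0 on all 3, as were 15.9%. At an adjusted p under 0.05, limma called 0 of 32911 probes (0%) and so none of the 11. At an unadjusted p under 0.05 it called 1384 probes lower and 1622 higher.

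The 3 arrays had little in common over the whole array. Over all tested probes, the log2 ratios correlated at 0.286 between arrays 1 and 2 (Pearson r). The r was 0.098 between arrays 1 and 3 and -0.013 between arrays 2 and 3. Replicates also differed in how many of the factors were low. On array 1, 7 of the 11 tested probes had a ratio below 0, and on arrays 2 and 3 there were 9 each. The median over the 11 was -0.16, -0.49 and -1.08 on arrays 1, 2 and 3. Bcl11b was at -1.08 on array 3, and array 1 was the only one on which all 3 Tox probes were above 0. The number of probes lower at an unadjusted p under 0.05 was 4 without array 1, 3 without array 2 and 2 without array 3, where 2.32%, 3.42% and 4.73% of all tested probes were lower. Without array 1 the 4 were the first Tcf7 probe, Gata3 and both NM_145711 probes of Tox, and without array 3 they were the first Tcf7 probe and Gata3. Those 2 probes kept an unadjusted p under 0.05 with any 1 array left out.

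With array 2 turned, the mean of the first Tcf7 probe was -0.42 ± 2.24 and that of Gata3 -0.39 ± 1.64, so that each was smaller than its spread. The second Tcf7 probe, whose ratio on array 2 was near 0, was at -1.01 ± 1.11, and Tbx21 was at -0.37 ± 0.76. The Tox clone probe and Eomes turned to 0.56 ± 0.90 and 0.02 ± 0.37, and the NM_145711 probes of Tox came to -0.19 ± 1.27 and -0.05 ± 1.05. Bcl11b was at -0.42 ± 0.58, Lef1 (NM_010703) at 0.14 ± 0.69 and Zbtb7b at 0.14 ± 0.60. The means of the 4 probes called lower as labelled stayed below 0, but none of the 11 probes then had an unadjusted p under 0.05, where 1.94% of all tested probes were lower. In the authors' deposited table the ratios of the first Tcf7 probe stand as -1.70, 2.23 and -1.81, those of Gata3 as -1.54, 1.55 and -1.25, and those of Tbx21 as -0.97, 0.49 and -0.62. Their sizes differ little from the values above, and the sign differs on array 2 for all 3 genes.

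**Figure D3:**
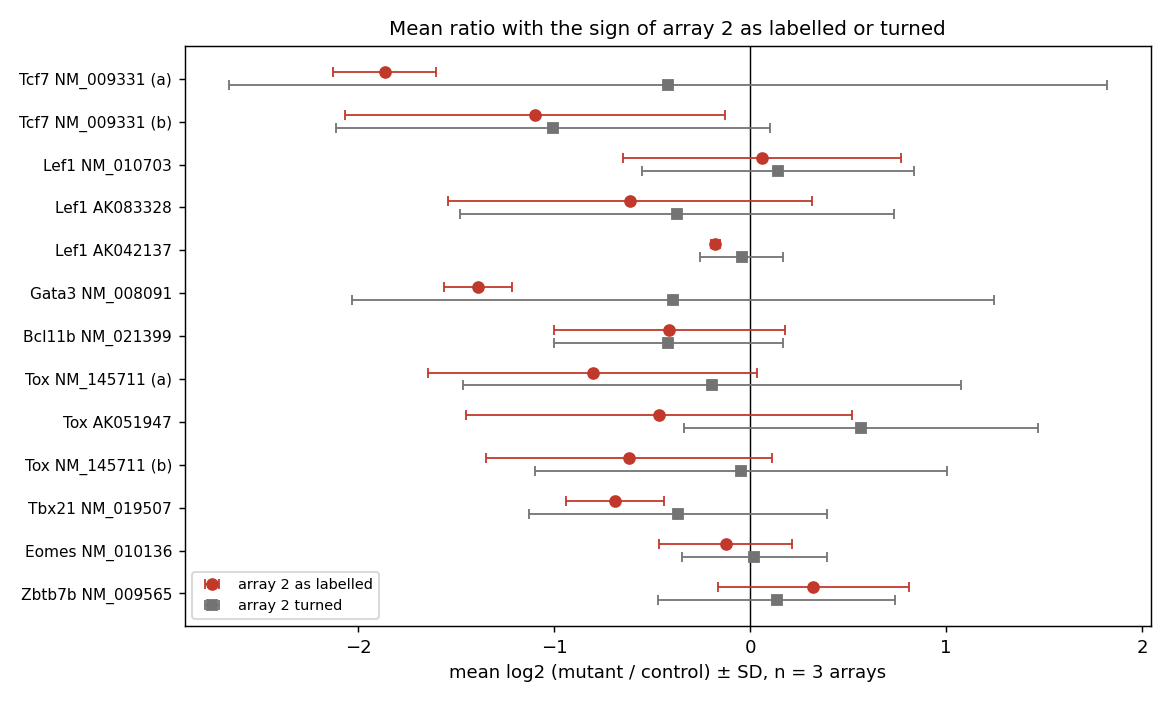
Mean log2 ratio of mutant over control ± SD over 3 arrays (x axis) of the 13 probes, with array 2 as labelled (red circles) or with its sign turned (grey squares). As labelled the bars of Tcf7 (a), Gata3 and Tbx21 stay below 0, and with array 2 turned the bars of all 3 cross 0.

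The samples were checked against markers of the sorted cells and of others. All 8 markers of c-kit+ Sca-1+ progenitors were well above background in all 6 samples. Within them, Flt3, a receptor of lymphoid-primed progenitors, had a log2 ratio of -1.15 ± 0.12, with 11.96, 12.08 and 12.23 in the mutant samples and 12.98, 13.34 and 13.42 in the controls. It was below 0 on every array, as were 18% of all tested probes. Procr, a stem cell marker, was at -1.57 ± 0.91, Ly6a, which encodes Sca-1, at 0.82 ± 0.27, and the stem cell marker Slamf1 at 1.16 ± 1.05 and 1.21 ± 1.25 on its 2 probes, while the other 4 genes had an unadjusted p above 0.05 (limma). Of 14 tested probes for 10 T cell markers, 1 was lower, Cd3g at -0.77 ± 0.20, and 0 were higher. The mean ratio of the list, with each gene at its brightest probe, was -0.30, -0.38 and -0.01 on arrays 1, 2 and 3. Its summed signal, in which the brightest probes weigh most, was 14773 to 18942 in the mutant and 16415 to 16583 in the control samples.

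Markers of natural killer and innate lymphoid cells went both ways. The list of 9 genes had 10 tested probes, with none for Gzma and Gzmb, which were too dim. The receptor genes Klrd1 (-1.09 ± 0.82) and Klrb1c (-0.59 ± 0.33 on 1 of 2 probes) were lower on every array, as Tbx21 was. The granule gene Nkg7 was higher (0.83 ± 0.59 on 1 of 2 probes). The list's mean ratio was 0.11, -0.31 and -0.34 on arrays 1, 2 and 3. Its summed signal was 30973 to 39474 in the mutant and 22297 to 31330 in the control samples. Most of each sum came from the brighter Nkg7 probe alone. That probe read 14.66 to 15.15 in the mutant and 14.07 to 14.64 in the control samples, so the sum says little about the other genes. Among B cell markers 1 of 9 tested probes was lower, a Pax5 probe at -1.78 ± 1.06. That Pax5 probe and the lower Klrb1c probe each cleared background in 3 control samples and 1 mutant sample. Both thus passed the brightness filter through the control channel alone, which favours low ratios. Among neutrophil genes Camp (-1.78 ± 0.98) and S100a9 (-1.94 ± 1.77) were lower, 2 of 6 tested probes, each below 0 on every array. Among erythroid genes both Hba-a1 probes were lower on every array (-1.54 ± 0.93 and -1.68 ± 1.03) and 1 of 4 Hbb-b1 probes was higher (0.91 ± 0.77), of 8 tested. The erythroid sum was 21500, 11399 and 13990 in mutant samples 1, 2 and 3 and 43765, 20623 and 17548 in the controls, so it was lower in the mutant on each array. Calls in both marker paragraphs are at an unadjusted p under 0.05 (limma), where 4.21% of all tested probes were lower and 4.93% higher. Of all tested probes, 18% were below 0 on all 3 arrays. The T cell list had 9 of 10 genes above background in all 6 samples, the natural killer list 6 of 9 and the B cell list 7 of 8, and every erythroid, neutrophil and immediate early gene was above it throughout. The part of any of these cells, or of a shift among progenitors, in the values of Tcf7, Gata3 and Tbx21 was not tested.

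Control sample 1 stood apart. Its 5 immediate early genes summed to 248533 against 3754 to 24728 in the other samples, and its 5 neutrophil genes to 84540 against 2930 to 9196. Its sum of 4 erythroid genes was 43765 against 11399 to 21500 elsewhere. Without that array the log2 ratio of the first Tcf7 probe was -1.96 and that of Gata3 -1.34, and with it they were -1.86 and -1.39. The second Tcf7 probe moved from -1.10 to -0.61 and Tbx21 from -0.69 to -0.55. Mef2c itself, the targeted gene, had log2 ratios of 0.08, 0.10 and -0.96 on its bright probe for NM_025282, so it was lower on array 3 alone. Its dim probe for AK044643 was at 1.07, 0.22 and 0.28 (mean 0.52 ± 0.48), above 0 on every array. The sources used here do not say if these probes lie in the deleted part, so they do not check the genotype. Between 73.4% and 80.4% of all probes were well above background in a sample, and 0 spots were saturated.

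Genes around these factors were counted in 4 groups, 83 genes in all, of which 76 were on the array with 145 probes and 105 tested. At an unadjusted p under 0.05 (limma), 12 of the 105 were lower in the mutant (11.4%, against 4.21% of all tested probes) and 3 were higher (2.86%, against 4.93%). The median over the 105 was -0.17, and 72 (68.6%) were below 0. None passed at an adjusted p under 0.05. Since several probes share a gene, the 12 lower probes stood for 7 genes. Read by each gene's brightest probe, 5 of 62 genes were lower at an unadjusted p under 0.05 (limma) and 0 were higher. Over all genes read so, 5.3% were lower. Of the 91 probes well above background in all 6 samples, 11 were lower and 3 higher, where 4.23% of all such probes were lower.

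Relatives of the factors within their families gave 28 tested probes from 16 genes, of which 2 were lower and 1 higher at that threshold, with a median of -0.18. Lowest was Tcf7l2, the Wnt pathway relative of Tcf7, at -0.98 ± 1.01 on 1 of 3 tested probes (limma, unadjusted p = 0.0546). Its others were at -0.52 and 0.04. Next was Gata4, a heart and gut factor, at -0.96 ± 0.62 on its only tested probe. Another Gata4 probe was not well above background in any sample. The highest were 1 of 3 tested Gata6 probes at 0.56 ± 0.05 and Gata1, the erythroid relative of Gata3, at 0.40 ± 0.35 (limma, unadjusted p = 0.147). Bcl11a, the relative of Bcl11b that serves B cell and fetal globin control, gave the other lower probe, at -0.69 ± 0.20. Its other tested probes were at -0.62 and -0.19, each with an unadjusted p above 0.05 (limma). Bcl11a is named after its value was seen.

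Upstream signals and cofactors gave 34 tested probes from 17 genes, with 4 lower, 2 higher and a median of -0.13. All 4 lower probes belonged to Ets1, an ETS factor of T cell and natural killer development, and they stood at -1.62 ± 0.08, -1.16 ± 0.41, -1.11 ± 0.53 and -0.89 ± 0.41, below 0 on every array. Hes1, a direct Notch target, followed at -0.68 ± 1.57, with -2.46 on array 1 and 0.51 on array 3. The highest were Tle1, a corepressor that binds TCF proteins, at 0.74 ± 0.53 on 1 of 3 probes, and Cbfb, the partner of RUNX factors, at 0.55 ± 0.09 on 1 of 2 probes. Notch1 had a mean of -0.34 on one probe and -0.28 on the other, and neither had an unadjusted p under 0.05.

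T cell genes that these factors act on gave 24 tested probes from 17 genes, with 2 lower, 0 higher and a median of -0.20. The lower pair were the kinase Txk at -0.92 ± 0.24 and the CD3 gamma chain Cd3g at -0.77 ± 0.20, each below 0 on all arrays. Cd4 was at 0.49 ± 0.49 and Cd8a at 0.44 ± 1.09 on their highest probes, whereas other probes of the same genes were at -0.43 and -0.24. Effector and innate lymphoid genes gave 19 tested probes from 12 genes, with 4 lower, 0 higher and a median of -0.24. Of these, 3 were probes of Rora, a nuclear receptor needed for innate lymphoid cells, at -1.13 ± 0.71, -0.84 ± 0.24 and -0.65 ± 0.13, and the other was 1 of 4 Runx2 probes at -0.78 ± 0.64. The Rora probe at -0.65 cleared background in 3 control samples and 0 mutant samples, so the control channel alone brought it into the test. This favours a low ratio. The highest of this group were Il4 at 0.31 ± 0.38 and 1 probe of the interleukin 33 receptor Il1rl1 at 0.29 ± 1.20.

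**Figure D4:**
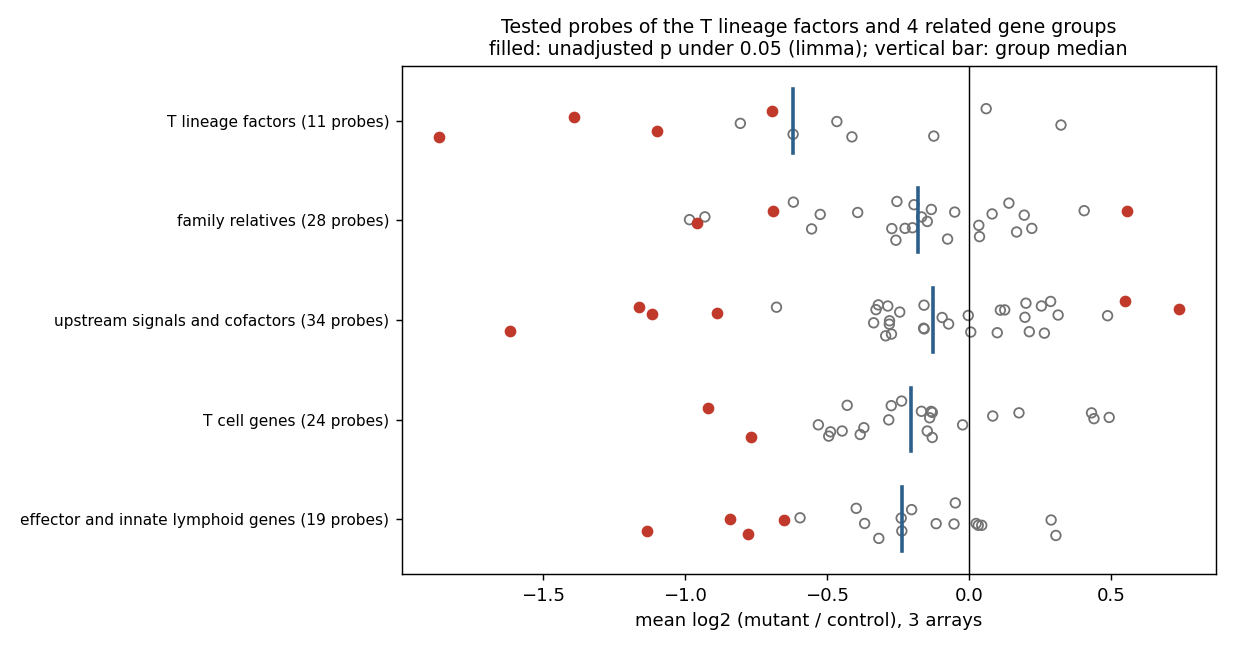
Mean log2 ratio of mutant over control (x axis, 3 arrays) of each tested probe of the T lineage factors (11 probes) and of the 4 related groups, with filled points for an unadjusted p under 0.05 and a blue bar at each group's median. The medians lie at -0.62 for the factors and between -0.24 and -0.13 for the other groups, and the 2 lowest points among the factors are the first Tcf7 probe and Gata3.

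For each gene whose brightest probe was above background in all 6 samples, the most similar level profiles over these 6 samples were looked up among 28506 probes. Nearest to Tcf7 was Hmgn1, a nucleosome-binding protein (Pearson r = 0.999), nearest to Gata3 was Olfr15 (0.998) and then the ubiquitin ligase Peli1 (0.994), and nearest to Tbx21 was the clone AK051712 (0.997). The nearest profiles were Fdps, St13 and BC050210 for Lef1 (0.977 to 0.983), Shroom3 for Bcl11b (0.994), Gbp4 for Eomes (0.992) and Gmcl1 for Zbtb7b (0.996). No member was among the 3 nearest profiles of another. The 6 points share 3 arrays and 2 dyes, so such values describe these samples only.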

How the data were processed

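RNA of 3 mutant and 3 control samples was measured on 3 2-colour Agilent arrays. The deposited scanner files, written by Feature Extraction 9.5.1.1, give the linear intensity of each spot and, per the file headers, log10 of Cy5 over Cy3. The authors' deposited table holds log2 ratios, and the submitters' processing notes name limma. How these were normalised the sources used here do not say. Here mean intensities were corrected by normexp (offset 50, median local background) and loess in limma 3.58.1 (R 4.3.3). Control spots and outlier spots (300, 331 and 252) were left out. Levels were further normalised by Aquantile, which keeps ratios. Of 41174 probes, 32911 were tested: they were measured on 2 arrays or more and, for 1 of the channels, well above background on 2 or more. The test was lmFit, eBayes and Benjamini-Hochberg adjustment. All arrays lay on 1 slide, so no slide block was fitted. Symbols are those of the files. The number of arrays limits precision. Ratios were simulated for 32869 probes, with independent noise for each. The adjusted test found 0 of 67 true 2-fold changes, 13 of 67 true 4-fold changes and 58 of 66 true 16-fold changes, plus 4 false ones. At an unadjusted p under 0.05 (limma) 55 of 67, 66 of 67 and 66 of 66 were found, and 5.00% of unchanged probes were called. The adjusted counts depend on how many probes change, which is not known for these data. The 8 genes and the lists were chosen with earlier results of these data known. Every probe of the 8 genes is named. Of each related group, the 2 genes with the lowest and the 2 with the highest ratios among tested probes are named. Progenitor, T cell and other markers were listed too. Alternatives were other background correction, centring, processed signals, filters, array 2 turned, the deposited ratios, each array left out, and gene-level tests.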

Additional observations from a re-analysis of the deposited data

How the results depend on the processing

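For the tested probes of the 8 genes, 101 of 107 mean ratios under the alternatives kept their sign, of which 29 moved by over 1.5 times, and 6 changed sign. None passed the adjusted test before or after, so that test says nothing about stability. Lef1 (NM_010703) was at -0.16 with median centring. With array 2 turned, Tox (AK051947) was at 0.56 and Eomes at 0.022. With 1 array left out, Lef1 ranged from -0.33 to 0.36, Eomes from -0.31 to 0.017 and Tox (AK051947) from -0.89 to 0.075. The count of probes at an unadjusted p under 0.05 was 3006, and ranged from 1613 (without array 1) to 3812 (without array 3) with 1 array left out. With array 2 turned it was 1107, of which 0 were lower probes of the 8 genes. Of the 105 tested probes of the related groups, 4 were called then, all lower, where 1.94% of all tested probes were lower. The lower probes of the 8 genes numbered 4, and 2 to 4 with 1 array left out. The related groups had 15 of 105 tested probes at an unadjusted p under 0.05 (limma). With 1 array left out there were 8 (without array 2) to 10. The 8 were all lower, where 3.42% of all tested probes were lower. With each gene read by its brightest probe, 5 of 62 had such a p, against 2273 of 22419 over all genes. With the mean of its probes it was 6, against 2332 of 22419. These 5 and 6 were all lower, where 5.3% and 5.26% of all genes were lower. Median centring moved the median of all tested probes to -0.145 and the share of lower calls from 46.0% to 77.4% (2745 lower and 801 higher). Then 5 of the 11 probes of the 8 genes were lower, where 8.34% of all tested probes were lower. Adjusted calls were 0 under every alternative run. Signal over background limits Tox and the clone probes of Lef1.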
